A study of Mus musculus with 2 samples.

Results

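The regions described here are 34 dense clusters of accessible sites that appeared in the peak list of late-stage mouse prostate tumor cells and not in that of early-stage cells. The assay was ATAC-seq, which uses a transposase to cut and tag open DNA, and it covered 2 libraries of C57BL/6 mouse prostate tumor cells, a series on progression toward neuroendocrine prostate cancer. M6 came from cells after 6 months of tamoxifen (the late stage) and W2 from cells after 2 weeks (the early stage). The alleles that tamoxifen acts on and whether animals were pooled were not stated in the labels. Each time point had 1 library, so differences between M6 and W2 could not be checked against replicates, and the peaks of a cell mixture do not tell weak accessibility in all cells from strong accessibility in a few.

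The clusters were chosen by the measured peak calls of both libraries and the distances between peaks. M6 had 22570 peaks on chromosomes 1 to 19, X and Y and W2 had 5735. Of the M6 peaks, 12957 (57.4%) overlapped no W2 peak and touched no window of 1 kb around either end of a protein-coding gene, and are called late-only distal peaks. The 157 of them that lay in 2 stretches of chromosome 4, 1350 kb around Nfib and 938 kb around Mycl, were left out. Neighbours among the other 12800 were joined where the gap between them was at most 12500 bp, and runs of 4 or more peaks were kept. These runs are called chains. They held 142 peaks, 1.11% of the late-only distal peaks (exact binomial 95% interval 0.935 to 1.31%). That the members are absent from W2 and close together is fixed by this rule and is not a result.

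Sites of open chromatin away from promoters include enhancers, stretches of DNA bound by transcription factors that act on genes at a distance. Groups of neighbouring enhancers joined within such a gap are often studied as units, because genes that set a cell's identity tend to have several of them close by. In neuroendocrine prostate cancer, luminal tumor cells take on programs of nerve and hormone-secreting cells, and new distal sites are one place where such a change can be read. Accessibility alone does not show that a site is an enhancer.

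The label of the cells was checked at marker genes. Of all 21887 coding genes, 39.7% had a peak within 1 kb of a gene end in M6 and 18.4% in W2, the shares against which the markers are read. Of 13 luminal prostate markers, 8 had such a peak in M6 and 4 in W2 (Cdh1, Epcam, Elf3 and Cldn3, which had one in both). Of 8 neuroendocrine markers, 3 (Scg2, Chgb and Syt1) had one in M6 and 0 in W2, which in M6 is near the share of all genes. Counts this small do not set either list apart from other genes. The 3 basal, 5 leukocyte, 4 endothelial, 3 fibroblast and 2 smooth muscle markers had none in either library. Of all these markers, Syt1 was the gene with a chain at its locus.

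Some members of the chains lay at the start of a transcript, although the rule had kept away from gene ends. The gene table gives the outermost ends of each gene, and RefSeq lists further starts inside. Of the 142 chain peaks, 8 (5.63%, 2.46 to 10.8%) overlapped a RefSeq promoter window, from 250 bases before to 50 after an annotated start of a protein-coding gene. Among late-only distal peaks outside chains 467 of 12146 did (3.84%), a share inside the interval of the chain members. The 8 peaks fell into 5 chains, at Dnmt1, Mllt10, Gpr146, Mettl21a and the pair Atp5d and Midn. The 250 bases before the start are shown for the 5 genes where a peak summit lay within 200 bp of it, because these are the members for which a promoter, and not a distal site, is the annotated feature. The sequences are those of RefSeq on GRCm38.p6, 5′ to 3′ on the strand of the gene, and capitals mark the bases inside the M6 peak.
Dnmt1 (chr9:20952980-20953229, minus strand): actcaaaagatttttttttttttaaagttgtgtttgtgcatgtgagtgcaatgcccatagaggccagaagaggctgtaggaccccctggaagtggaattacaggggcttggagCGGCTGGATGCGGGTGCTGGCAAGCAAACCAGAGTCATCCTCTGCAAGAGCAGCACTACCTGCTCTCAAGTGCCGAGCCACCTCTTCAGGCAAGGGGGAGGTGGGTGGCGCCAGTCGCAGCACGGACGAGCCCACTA
Mllt10 (chr2:18064335-18064584, plus strand): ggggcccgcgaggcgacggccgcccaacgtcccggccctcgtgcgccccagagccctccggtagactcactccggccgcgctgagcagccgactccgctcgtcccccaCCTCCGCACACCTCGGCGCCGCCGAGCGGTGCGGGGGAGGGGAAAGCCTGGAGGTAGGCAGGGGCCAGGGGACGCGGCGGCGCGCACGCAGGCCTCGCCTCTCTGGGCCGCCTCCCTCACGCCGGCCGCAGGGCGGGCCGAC
Gpr146 (chr5:139380389-139380638, plus strand): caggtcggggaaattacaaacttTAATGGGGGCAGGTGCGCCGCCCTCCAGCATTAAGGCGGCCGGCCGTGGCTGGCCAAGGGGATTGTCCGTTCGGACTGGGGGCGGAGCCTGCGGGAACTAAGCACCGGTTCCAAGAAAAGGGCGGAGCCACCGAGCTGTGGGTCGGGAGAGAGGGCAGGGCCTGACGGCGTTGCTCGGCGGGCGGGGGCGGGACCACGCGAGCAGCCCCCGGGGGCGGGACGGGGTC
Midn (chr10:80149432-80149681, plus strand): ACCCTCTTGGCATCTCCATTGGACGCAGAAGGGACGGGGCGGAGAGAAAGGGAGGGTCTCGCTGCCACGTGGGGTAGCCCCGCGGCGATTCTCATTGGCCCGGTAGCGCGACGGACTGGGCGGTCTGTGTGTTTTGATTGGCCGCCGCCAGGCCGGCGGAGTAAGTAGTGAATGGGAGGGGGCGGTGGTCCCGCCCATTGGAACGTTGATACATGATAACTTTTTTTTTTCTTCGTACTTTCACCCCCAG
Atp5d (chr10:80142025-80142274, plus strand): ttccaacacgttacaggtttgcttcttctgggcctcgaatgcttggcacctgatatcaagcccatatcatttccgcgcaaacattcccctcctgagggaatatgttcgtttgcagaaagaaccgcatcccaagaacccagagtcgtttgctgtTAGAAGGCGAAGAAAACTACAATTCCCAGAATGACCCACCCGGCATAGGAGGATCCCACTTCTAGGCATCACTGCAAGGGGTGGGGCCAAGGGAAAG

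The summits sat close to these starts. Minus signs stand for positions before the start. Dnmt1 encodes the methyltransferase that copies DNA methylation at replication, and its peak had a pileup (the count of tags covering the summit) of 31, a −log10 q of 11.4 and its summit at −3 bp from a start that lies inside the annotated gene. The summit at Atp5d, the gene of a mitochondrial ATP synthase subunit, lay at 28 bp (pileup 37), and that at Mllt10, whose protein works with a histone H3 methyltransferase, at 55 bp (pileup 29). At Gpr146, an orphan receptor gene, the summit lay at −77 bp (pileup 30), and at Midn, which encodes midnolin, a nuclear protein that brings proteins to the proteasome, at −152 bp (pileup 46). A second start of Gpr146 had a member summit at −1 bp with a pileup of 19. The Atp5d summit lay at −12 bp from a second start of that gene, nearer than the start printed above. None of these starts was covered by a W2 peak, which the rule had required.

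The 5 sequences differed in base composition. CpG-rich promoters are typical of genes used in most cells. The ratio of observed to expected CpG was 0.958 at Midn, 0.922 at Mllt10, 0.869 at Gpr146, 0.561 at Atp5d and 0.380 at Dnmt1, against a median of 0.373 over 32817 RefSeq promoter windows. A second annotated start of Dnmt1 lay under the same peak, and the 250 bases before that start had a ratio of 0.890. For the second start of Atp5d the ratio was 0.646. The GC box GGGCGG, read on both strands and counting overlapping copies, occurred 6 times at Gpr146, 4 times at Midn and 2 times at Mllt10, and 32.7% of all windows held it. The CCAAT box, also on both strands, occurred 4 times at Midn and not in the other 4 sequences (33.8% of all windows). The 250 bases before the second Dnmt1 start, not printed here, held 2 GC boxes and 3 CCAAT boxes. TATAAA (12.4%), the cyclic AMP element TGACGTCA (1.55%) and the AP-1 letters TGANTCA (6.75%) were in none of the 5 stretches, nor were the ETS letters CCGGAAG (6.90%) or the nuclear factor I palindrome (0.0366%). CAGNTG, an E-box form bound by proneural factors, was in 2 of the 5, Atp5d and Gpr146 (44.8%). These are matches of letters in a window and show no binding.

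The chains were sparsely filled. The rule capped each gap at 12500 bp, so the lengths and gaps given here are partly set by it. They ran from 6.29 to 33.7 kb from the first to the last peak, with a median of 19.8 kb, and 17 of 34 were longer than 20 kb. The number of peaks was 4 in 29 chains, 5 in 4 chains and 6 in 1. Peaks covered 3.34 to 36.2% of a chain's length (median 7.04%). Of the 108 gaps between neighbours, 27 were under 1 kb and 19 (17.6%) over 10 kb, with a median of 6.04 kb. Neighbours under 1 kb apart were counted as separate peaks. How many chains would keep 4 peaks if such neighbours were merged was not tested. The longest gap inside a chain was 12481 bp. The nearest miss was a run of 3 with its next late-only distal peak 12529 bp away, and 16 of the 146 runs of 3 had one within 15 kb. Runs of 2 or 3 peaks were far more numerous (1164 and 146), and 9892 late-only distal peaks, 77.3%, stood alone.

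**Figure D1:**
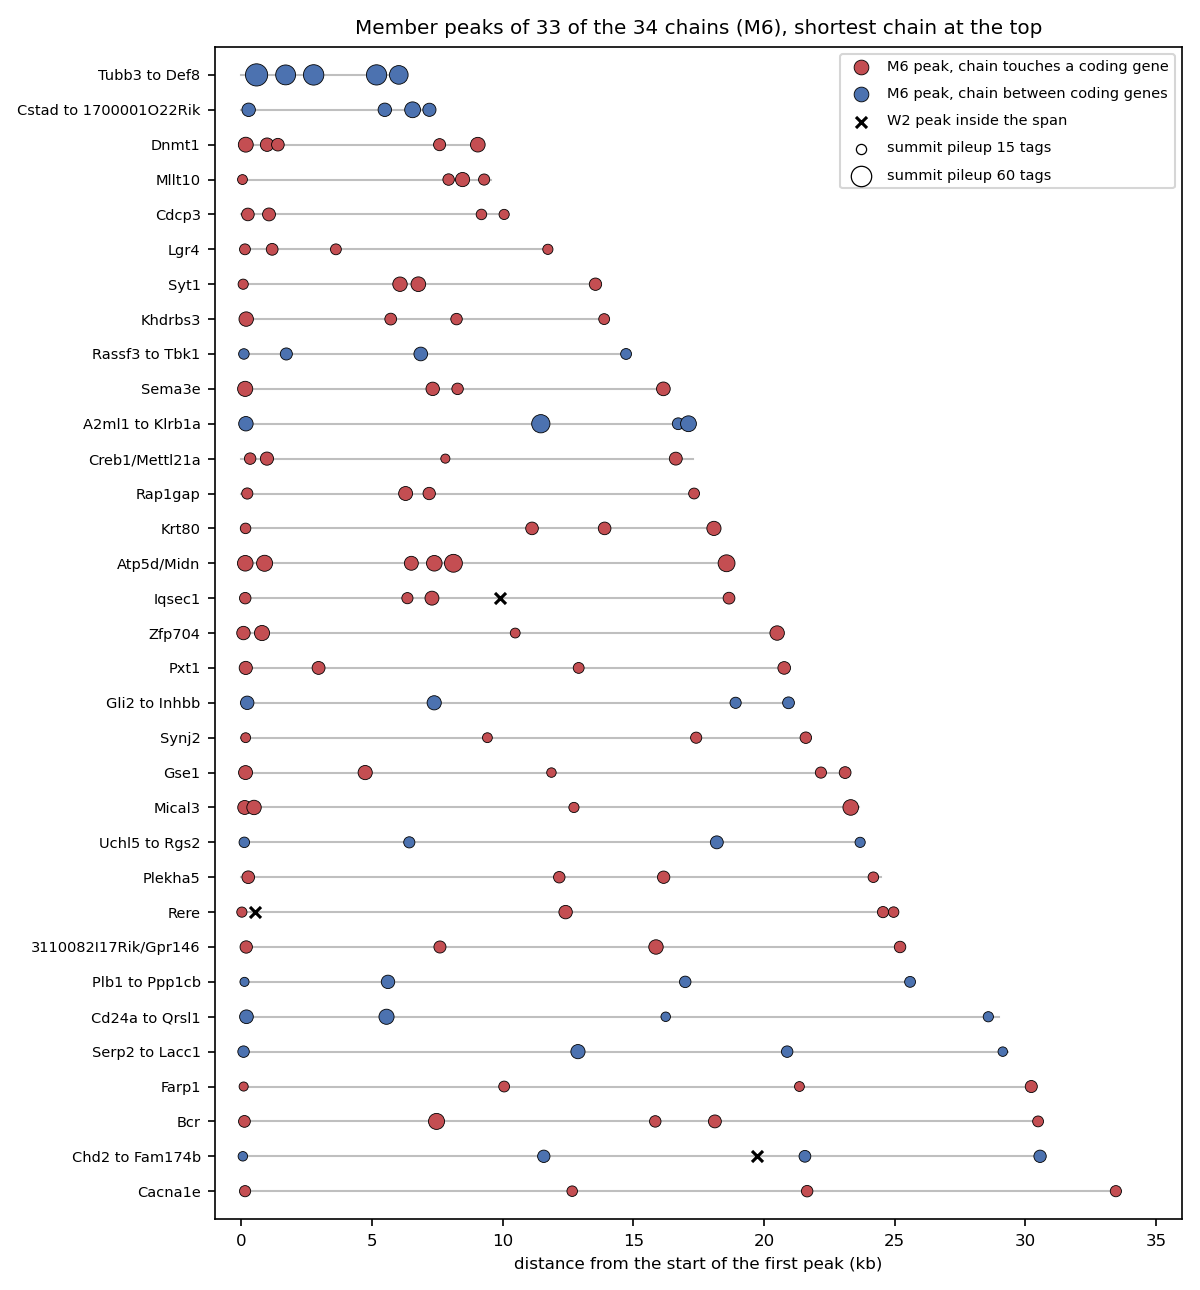
Position of each member peak in 33 of the 34 chains (rows, named by the coding genes touched or by the nearest gene on either side; shortest at the top) as distance in kb from the start of the chain, with circle area proportional to the M6 summit pileup. The chain between Tubb3 and Def8 is the shortest (6.29 kb) and has the largest circles, Cacna1e the longest (33.7 kb), and crosses mark the 3 W2 peaks that lie inside a span.

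Other peaks within the spans were counted. By the rule, every late-only distal M6 peak there is a member. Late-only peaks made up 90.8% of distal M6 peaks outside the chromosome 4 stretches, so few other M6 peaks were left to fall inside. No comparison with other spans is given. In 33 of 34 chains the members were the only M6 peaks from end to end, and the exception, the Krt80 chain, held 1 late-only peak at a gene end. W2 peaks lay inside 3 spans: one 0.155 kb from a member in Rere (−log10 q 8.56, pileup 22), one 1.56 kb from a member between Chd2 and Fam174b (4.12, pileup 18), and one 2.39 kb from a member in Iqsec1 (3.47, pileup 19), which lay at an annotated transcript start of that gene. Around the spans, 15 of 34 chains had a W2 peak within 50 kb, and the nearest W2 peak lay at a median of 58.3 kb and at most 580 kb. Other M6 peaks within 50 kb numbered 0 to 6 per chain (median 2), and 5 chains had none (Creb1 with Mettl21a, Pxt1, Cdcp3, A2ml1 to Klrb1a, and Cstad to 1700001O22Rik).

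Most chains lay in or across genes. A coding gene body was touched by 23 of 34 chains (67.6%, 49.5 to 82.6%), by 780 of 1310 runs of 2 or 3 peaks (59.5%, 56.8 to 62.2%) and by 5311 of 9892 lone peaks (53.7%, 52.7 to 54.7%). A longer span has more chance to meet a gene. Per peak, 63.4% of chain members (54.9 to 71.3%) were inside a coding gene body, against 54.4% of late-only distal peaks outside chains (53.5 to 55.3%). Peaks in runs of 2 or 3 had 56.9%, and distal M6 peaks that overlap a W2 peak 61.3%, both inside the interval of the members. The 142 members lie in 34 chains and are not independent, so that interval is too narrow. The 26 genes touched had a median length of 128 kb, against 17.2 kb for all 21887 coding genes. The 3764 genes whose body held a late-only distal peak but no chain had a median of 76.7 kb. Part of the contrast with all genes is thus shared by genes with any such peak. Counting 10 kb on either side of the gene body as its locus, 34 genes (0.155% of all) had a chain, no gene had more than 1, and 19 of the 34 belonged to the longest of 5 length classes, where the share was 0.434%. Most of the 34 genes had 0 W2 peaks at their locus, so a value of 0 at a gene named below is the usual case.

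Neural and excitability genes were a small group among these. The lists held 46 neuroendocrine genes, of which 1 had a chain at its locus, Syt1. Of 79 genes of neural adhesion and guidance 1 had one, Sema3e, and of 48 ion channel genes 1, Cacna1e. The list of 52 genes of synaptic vesicle release, which did not hold Syt1, had none. The 46 neural transcription factors and 48 neurotransmitter receptors also had none. Of 53 genes of the Wnt, TGF-beta and Notch pathways 1 had one, Lgr4. The lists of luminal (38), basal (21), mesenchymal transition (17), cell cycle (26) and housekeeping (29) genes, of receptor tyrosine kinases (29), nuclear factor I and partner factors (16), tumor suppressors and oncogenes (39), and of fibroblast (16), smooth muscle (10), leukocyte (22), endothelial (15) and hepatocyte (15) genes had none. Over all lists 4 of 657 genes had a chain (0.609%), for which no share matched by length is given. Genes of the same length classes had one in 0.199% for the neuroendocrine and 0.411% for the guidance list. The share was 0.406% for the channel and 0.273% for the Wnt, TGF-beta and Notch list. For the lists with none it ran from 0.0788% (housekeeping) to 0.365% (neurotransmitter receptors). Counts of 1 gene do not set a list apart from other genes.

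Syt1, the calcium sensor of vesicle release, carried its 4 member peaks inside the gene, on chromosome 10 from 108923719 to 108937412. The summit pileups were 15, 30, 31 and 22 tags, and the highest −log10 q was 10.6. The middle pair lay 0.204 kb apart. The gene had 10 M6 peaks and 0 W2 peaks at its locus. The chain made up 4 of the 10, and another lay at a gene end (−log10 q 21.0). The nearest W2 peak was 533 kb away.

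Cacna1e, the pore-forming subunit of an R-type voltage-gated calcium channel, held the longest chain, on chromosome 1 from 154651270 to 154684932. Its 4 peaks were nearly alike, with pileups of 18, 16, 19 and 18 tags over backgrounds of 2.65 to 2.80 tags, of which the lower is the floor of the library, and −log10 q values from 5.10 to 7.74. The locus had 12 M6 and 0 W2 peaks. Sema3e, a secreted guidance cue of axons and vessels, had 4 peaks with pileups of 33, 26, 19 and 27, at chromosome 5, 14032034 to 14048304. Its locus had 8 M6 and 0 W2 peaks, among them a weak M6 peak at a gene end (3.56). Lgr4, a receptor for R-spondins in Wnt signaling, had the chain with the lowest top −log10 q of all 34 (5.90; pileups 17, 20, 17 and 15). The start of Lgr4 had a peak in both libraries. Its −log10 q was 36.3 in M6 (62 tags) and 12.8 in W2 (30 tags).

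Other genes with chains that act in neurons or at synapses, grouped here after their values were seen, were Khdrbs3, Farp1, Synj2, Iqsec1 and the neighbour Tubb3. Khdrbs3, an RNA-binding splicing factor, had pileups of 30, 20, 19 and 17 (top −log10 q 10.4). Farp1, an exchange factor for small GTPases that acts in dendrite growth, had the chain with the smallest summed signal of the 34, 51.9 tags above background, with pileups of 12, 17, 14 and 21. Synj2, a phosphoinositide phosphatase of vesicle recycling, followed with 53.1 tags. Iqsec1, an exchange factor for the small GTPase Arf6, had pileups of 19, 18, 28 and 20 and the W2 peak inside its span already given. The loci of Khdrbs3, Farp1 and Synj2 had 1 W2 peak each, that of Iqsec1 had 2 and that of Tubb3 had 0.

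The densest chain lay between Tubb3, the tubulin of neurons, and Def8, at chromosome 8, 123426433 to 123432720, 4.42 kb from the end of Tubb3. It packed 5 peaks into 6.29 kb (7.95 peaks per 10 kb) and had the highest pileups of all chain members, 71, 57, 60, 59 and 50 tags. These tags stood on a raised local background of 20.9 to 25.7 tags. Their median, 24.1 tags, was 6.85 times that of all M6 peaks (3.52 tags). The folds over background ran from 2.27 to 3.28, all below the lower quartile of the chain members (3.59). The nearest M6 peaks outside had backgrounds of 5.50, 4.80 and 5.08 tags on the Tubb3 side and 3.98, 4.94 and 3.58 tags on the Def8 side. The peak at the start of Tubb3 itself had 29 tags, a fold of 4.62 and a −log10 q of 9.12 in M6, and W2 had no peak there. The part of the raised background in these pileups was not tested.

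Genes of chromatin and transcription formed a second group, also put together after their values were seen. Dnmt1 had 5 peaks in 9.19 kb (chromosome 9, 20943932 to 20953116) with pileups of 32, 26, 23, 21 and 31 tags. The last of them is the peak at the annotated start printed above, and 3 others lay close together further into the gene. W2 had 0 peaks at the Dnmt1 locus. Gse1, which encodes a partner of histone deacetylase complexes, had 5 peaks with pileups of 28, 29, 13, 18 and 20 inside a gene of 353 kb that held 15 M6 and 4 W2 peaks at its locus. Rere, a corepressor, had pileups of 15, 26, 18 and 16 and 1 W2 peak at its locus. Zfp704, a zinc finger gene, had 26, 33, 14 and 30 tags and 0 W2 peaks at its locus. Mllt10 had 14, 19, 29 and 18 tags, all 4 peaks within 1 kb of one of its annotated starts. The chain that ran from Creb1, a factor activated by cyclic AMP, into Mettl21a, a methyltransferase of heat shock proteins, had 19, 25, 12 and 24 tags, and Creb1 had a peak at its own start in M6 (−log10 q 15.6, pileup 37) and in W2 (5.33, pileup 19).

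Of the 34 chains, the one with the most peaks crossed Atp5d and Midn, at chromosome 10, 80141413 to 80160255. Its 6 peaks had pileups of 35, 37, 28, 35, 46 and 41 tags over a background with a median of 10.4 tags (2.97 times that of all M6 peaks). Of these peaks, 5 had a summit within 1 kb of an annotated transcript start, and the sixth lay beyond the end of Midn (−log10 q 13.3). This stretch is gene-dense: Cbarp ends 1.06 kb before it, and Cirbp, an RNA-binding protein induced by cold, starts 5.73 kb after it and had a peak at a transcript start in M6 (7.37, pileup 33) and in W2 (3.74, pileup 19). The 2 nearest M6 peaks on the Cirbp side had backgrounds of 8.38 and 6.32 tags, and those on the Cbarp side 7.18 and 3.42 tags.

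Chains at genes of signaling, cytoskeleton and other functions had summed pileups above background from 61.4 tags at Rap1gap to 93.1 at Bcr. Bcr, a GTPase regulator known as the fusion partner of Abl in leukemia, had 5 peaks (20, 37, 19, 24 and 17 tags, top −log10 q 15.3) over 30.6 kb and 0 W2 peaks at its locus. Mical3, an actin-oxidizing enzyme, had 28, 30, 15 and 35 tags with a top −log10 q of 17.1. Rap1gap, an inactivator of the small GTPase Rap1, had 18, 28, 22 and 17 tags, and Plekha5, a pleckstrin homology protein, 23, 19, 22 and 16. The loci of Mical3 and Plekha5 had 3 and 2 W2 peaks, and that of Rap1gap had 0. The Gpr146 chain (22, 21, 30 and 19 tags) lies inside 3110082I17Rik and spans the miR-339 gene, whose hairpin is 2.33 kb from the nearest member. Cdcp3 had 23, 24, 16 and 15 tags. The chain that touches Krt80, a keratin gene, had 16, 23, 23 and 29 tags. Only its peak of 16 tags, with a −log10 q of 2.17, lay inside Krt80, and the others lay outside. The chain that touches Pxt1 had 25, 24, 17 and 23 tags, and only its peak of 17 tags lay inside Pxt1.

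Outside coding gene bodies lay 11 chains, and 6 of them had no coding gene within 50 kb. The highest −log10 q of all members was found between A2ml1 and Klrb1a, a receptor gene of natural killer cells, on chromosome 6 from 128585804 to 128603078. Its pileups were 30, 48, 20 and 36 tags, and its second peak had the −log10 q of 22.4, with a fold of 6.88. The median background was 5.37 tags, and no other M6 or W2 peak lay within 50 kb.

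The other chains between genes described here had top −log10 q values of at most 14.0. The one between Gli2, an effector of Hedgehog signaling, and Inhbb, the activin beta B subunit, lay 123 kb from Inhbb and had 26, 29, 18 and 20 tags. The one between Cd24a, a surface glycoprotein gene, and Qrsl1 had 27, 33, 13 and 15 tags (top −log10 q 14.0), 139 kb from Cd24a and 122 kb from Qrsl1. Cstad to 1700001O22Rik held 4 peaks in 7.26 kb (26, 26, 36 and 25 tags; top −log10 q 13.4), the second densest chain. Uchl5 to Rgs2 had 16, 18, 24 and 15 tags, Rassf3 to Tbk1 16, 21, 27 and 17, Serp2 to Lacc1 19, 29, 19 and 13, Plb1 to Ppp1cb 12, 26, 19 and 17, and Chd2 to Fam174b 13, 22, 20 and 22. In the last of these, the second peak was 962 bp wide, the widest of the 142 members.

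Median pileup and background were highest in chains, lower in runs of 2 or 3 and lowest at lone peaks, and the median fold ran the other way. Their summit pileup had a median of 21 (quartiles 17.2 and 28), against 19 (16 and 23) for the 12658 late-only distal peaks outside chains, and 28 of 142 (19.7%, 13.5 to 27.2%) reached 30 tags, against 9.08% (8.58 to 9.59%). Their local background had a median of 4.36 tags, against 3.18 outside chains. The fold, taken over that background, had a median of 4.15 in chains and 4.59 outside, and the median −log10 q was 6.07 and 6.12. The median width was 316 bp in chains and 303 bp outside. Runs of 2 or 3, the class most like chains, had medians of 20 tags, a background of 3.60 tags and a fold of 4.38 (n = 2766), and lone peaks 19, 3.08 and 4.66 (n = 9892). Without the Tubb3 to Def8 and the Atp5d with Midn chains, the 131 members left had a median pileup of 20, equal to that of runs of 2 or 3, a background of 4.14 and a fold of 4.23, and 13.7% (8.35 to 20.8%) reached 30 tags. How much neighbouring members add to each other's local background was not tested. Distal M6 peaks that overlapped a W2 peak had a median background of 4.04 tags and higher medians of the other measures, with a pileup of 27, fold of 5.45, −log10 q of 10.6 and width of 416 bp (n = 1303).

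**Figure D2:**
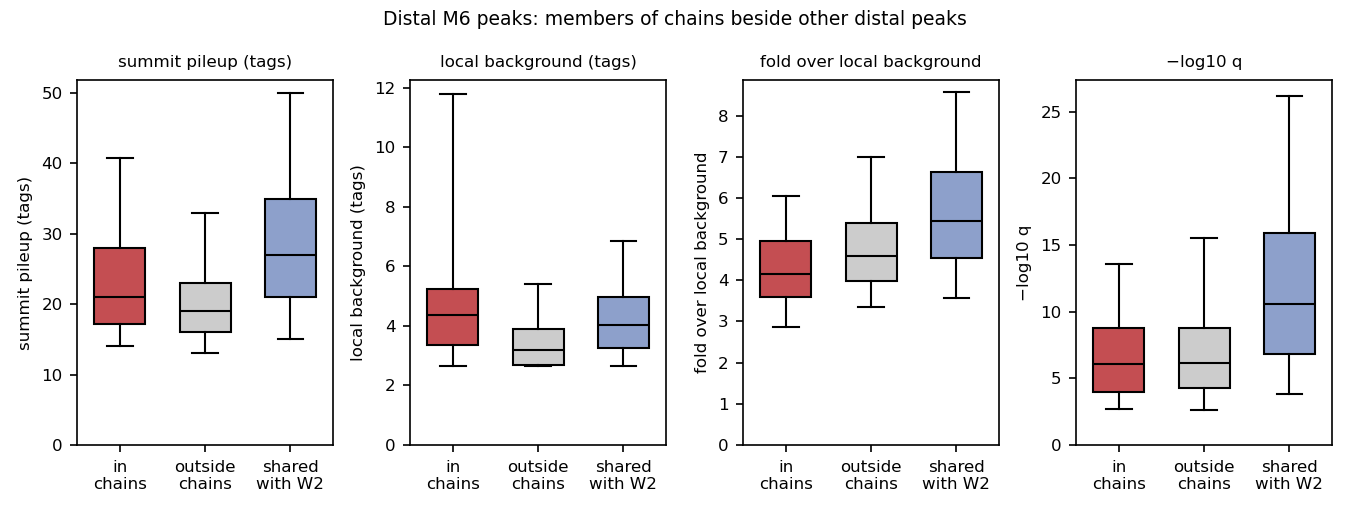
Summit pileup, local background, fold over background and −log10 q of distal M6 peaks: 142 members of chains, 12658 late-only peaks outside chains and 1303 peaks that overlap a W2 peak. Lines are medians, boxes quartiles and whiskers the 5th and 95th percentiles; chain members have the highest median background (4.36 tags) and the lowest median fold (4.15).

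A raised background marked a small part of the chains. A background 3 or more times that of the median M6 peak was found at 8 of the 142 members (5.63%, 2.46 to 10.8%), all of them in those same 2 chains, and at 8 of the 12658 late-only distal peaks outside chains (0.0632%, 0.0273 to 0.124%). Because a chain's peaks share their surroundings, the 8 members stand for 2 places and not for 8. Each of the other 32 chains had a median background 0.753 to 1.73 times that of all M6 peaks. The summed pileup above background was 180 tags at Tubb3 to Def8, 161 at Atp5d with Midn, 113 at A2ml1 to Klrb1a and 104 at Dnmt1, against a median of 69.2 over the 34 chains. The strongest peak of a chain gave 21.2 to 42.4% of that sum (median 33.8%).

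**Figure D3:**
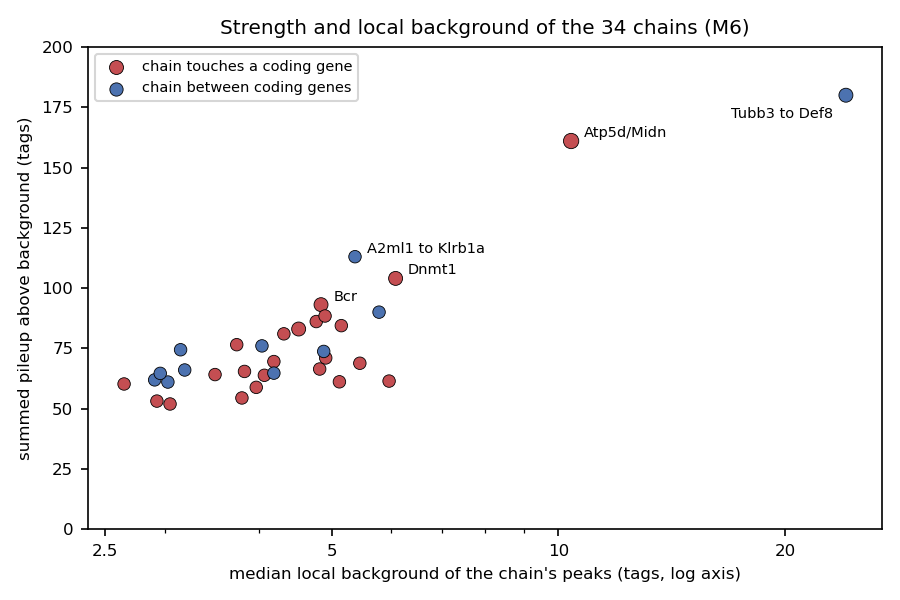
Summed summit pileup above local background (vertical axis, tags) against the median local background of the member peaks (horizontal axis, tags, log scale) for the 34 chains, with symbol area proportional to the number of peaks. Tubb3 to Def8 (180 tags over a background of 24.1) and Atp5d with Midn (161 over 10.4) stand apart to the right of the other 32.

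Whether an M6 peak had a W2 counterpart varied with its strength. Pileups of called peaks started at 10 tags in M6 and at 12 in W2, and at 1303 distal M6 peaks found in both libraries the median pileup was 27 in M6 and 20 in W2 (median log2 ratio 0.39). Among distal M6 peaks outside the chromosome 4 stretches, an overlapping W2 peak was present for 2.36% of those with 10 to 14 tags, 3.75% with 15 to 19, 8.56% with 20 to 24, 11.7% with 25 to 29, 27.1% with 30 to 39 and 49.0% with 40 or more. The members numbered 13, 47, 30, 24, 20 and 8 in these classes. They made up 0.669, 0.926, 0.986, 1.54, 2.09 and 3.65% of the late-only distal peaks of each class. The 8 strongest were the 5 of Tubb3 to Def8, 2 of Atp5d with Midn and 1 of A2ml1 to Klrb1a. When M6 was limited to its 5735 peaks with the highest −log10 q, as many as W2 has, 0 chains of 4 or more were left.

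Peaks at gene ends and at annotated transcript starts were counted for the genes touched by a chain. Of the 26 genes touched by a chain, 10 had a gene-end peak in M6 (38.5%, 20.2 to 59.4%) and 4 in W2 (15.4%, 4.36 to 34.9%). Of all coding genes 39.7% had one in M6 and 18.4% in W2. Of the 3764 genes whose body held a late-only distal peak but no chain, 47.4% (45.8 to 49.0%) had one in M6 and 19.7% (18.4 to 21.0%) in W2. At transcript starts, which RefSeq gave for 22 of the 26 genes, 15 had an M6 peak (68.2%, 45.1 to 86.1%) and 4 a W2 peak (18.2%, 5.19 to 40.3%). The shares were 62.4% in M6 and 22.4% in W2 for genes with a late-only distal peak but no chain, and 42.3% in M6 and 19.9% in W2 for all coding genes with a listed start. The 15 include Dnmt1, Mllt10, Gpr146, Mettl21a, Atp5d and Midn, where the peak at the start is itself a member of the chain. The strongest M6 gene-end peaks of chain genes were at Lgr4 (36.3), Syt1 (21.0), 3110082I17Rik (17.4), Creb1 (15.6), Farp1 (14.6) and Rere (11.5). In W2 the values were 12.8 at Lgr4, 5.32 at 3110082I17Rik, 5.33 at Creb1 and 4.98 at Farp1, with no gene-end peak at Syt1 and Rere.

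Chains were spread over 13 of 21 chromosomes. Chromosomes 6 and 10 had 5 each, chromosome 1 had 4, and chromosomes 2 and 5 had 3 each. The 8 chromosomes without one (11, 12, 13, 16, 18, 19, X and Y) held 3436 of the 12800 late-only distal peaks. Chromosome 11 had 695 of these peaks and 0 chains, while chromosome 6 had 728 and chromosome 10 had 785. Peaks in runs of 2 or 3 numbered 170 on chromosome 11, 143 on chromosome 6 and 162 on chromosome 10. Chromosome 11 was thus not without neighbouring peaks, and numbers of chains this small do not set it apart. The median local background of M6 peaks was 3.32 tags on chromosome 6, 3.66 on chromosome 10 and 3.56 on chromosome 11.

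**Figure D4:**
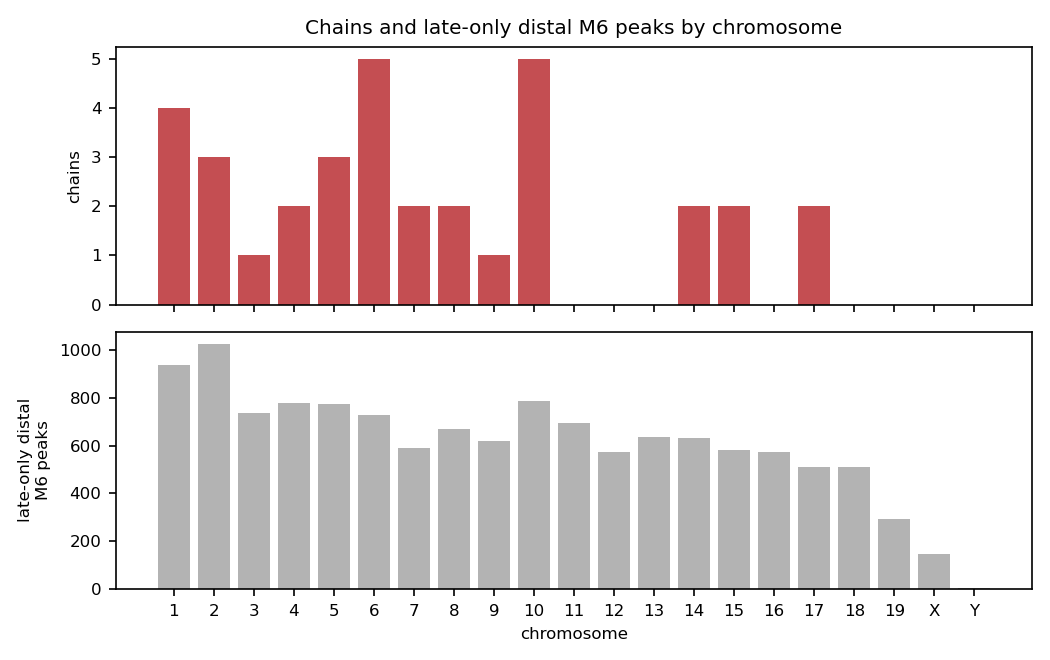
Number of chains (upper bars) and of late-only distal M6 peaks outside the 2 chromosome 4 stretches (lower bars) on each chromosome. Chromosomes 6 and 10 have 5 chains each, and chromosome 11, with 695 late-only distal peaks, has 0. Runs of 2 or 3 peaks are not drawn separately, and chromosome 11 had 170 peaks in such runs.

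The same joining rule was applied to other sets of peaks. The 938 distal W2 peaks without an M6 counterpart gave 0 chains of 4 or more. All 2270 distal W2 peaks gave 2, one in Sfi1 on chromosome 11 (7 peaks) and one in Fbxo31 (4 peaks). The 1303 distal M6 peaks that overlap a W2 peak gave 1, again in Sfi1 (6 peaks), and all 14103 distal M6 peaks together gave 57. These lists differ in length, so the counts are not comparable as rates. With a gap of up to 25 kb the late-only peaks formed 166 chains, in which 27 of the 34 kept the same ends and none were joined to each other. The largest of the 166 had 10 peaks in and around Trio, an exchange factor for small GTPases, and Farp1 followed with 7 peaks over 85.3 kb.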

How the data were processed

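M6 and W2 were each 1 ATAC-seq library, grouped by the tamoxifen treatment in the labels. The deposited M6 list carries a tag in its name that does not state the time point, so which library is M6 rests on the labels. The submitters' processing notes name deepTools, SAMtools 1.4, Bowtie2 and Trim Galore 0.5.0, and build mm10. Neither the peak caller nor its threshold or duplicate handling is stated there. The authors deposited 1 peak list per library. The fold of each peak, a linear ratio of summit over local background, was computed by the authors before deposit. The deposited −log10 p and −log10 q of each peak are also values made by the authors, and the −log10 p fitted a Poisson tail at that summit and background. The score deposited by the authors equalled 10 times the −log10 q, rounded down, and was not used. Peaks on other sequences (24 in M6, 30 in W2) were left out.

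The read depth is unknown. Whole-number pileups and backgrounds were recovered from the fold, taken as (pileup + 1)/(background + 1), and the Poisson −log10 p, for 100% of peaks within 0.001, with the step and the joining rule tested on simulated data. The background floor was 2.65 tags in M6 and 2.96 in W2. Genes came from RefSeq, assembly GRCm38.p6 (21887 coding genes), and transcript starts from its promoter table, which held 17492 of them. Peaks without promoter entries on their chromosome were left out of shares at transcript starts.

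No test was made, since each time point had 1 library. Intervals are exact (Clopper-Pearson) and cover counting error only; peaks of a chain are not independent. The members and lists were chosen with earlier results of these data known. Named by rule were the 10 chains with the most peaks (ties by summed pileup above background), the 10 longest, the 10 with the highest summed pileup above background, the 5 densest, and list genes with a chain; 33 of the 34 chains are described singly, and 1 is not reported here. Python 3.11.15, numpy 2.4.6, pandas 2.3.3 and scipy 1.17.1 were used.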

Additional observations from a re-analysis of the deposited data

How the results depend on the processing

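The number of chains depended on the joining rule. Of 34 chains, a gap of 5 kb left 1 (Tubb3 to Def8; 0.0391% of late-only distal peaks, 6.29 kb, 0% touching a gene) and a gap of 25 kb gave 166 (5.74%, median 38.8 kb). At least 3 peaks gave 180 (4.53%, 12.8 kb) and at least 6 gave 1 (0.0469%, 100% touching a gene). A −log10 q minimum of 5 gave 6 (0.293%). Taking as many M6 peaks as W2 has (5735), by −log10 q, gave 0 chains (0%), hence no length or gene share; this setting was chosen after seeing the data. These shifts follow from the changed rule or the smaller number of peaks. Keeping the chromosome 4 stretches gave 44 chains with 235 peaks, against 142 without them, and a share of 1.81%. The 34 chains kept their ends. Rankings of chains by peaks, length, density or signal in this report cover the 34 only. A W2 peak within 1 kb (33), a 50% overlap (34), and gene-end windows of 2.5 kb (30) changed the count by less than 1.5 times. Leaving out peaks within 1 kb of an annotated coding transcript start, also chosen after seeing the data, gave 30; the chains lost were those of Atp5d with Midn, Mllt10, Gpr146, and Creb1 with Mettl21a. No paired analysis was possible because each time point had 1 library. Regions with fewer tags than the lowest called pileups (10 in M6, 12 in W2) are outside both lists.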
